A study of Homo sapiens with 6 samples.

Results

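The array carried 5 assays whose listed symbol starts with LINC, the prefix given to long intergenic non-protein coding RNAs, among 84 lncRNA assays in all. They were LINC00504 (well F02), LINC00616 (well D10), LINC00640 (well E09), LINC00958 (well C05) and LINC01128 (well B12). They were chosen by the symbol alone, with 1 well each, and each well was kept as its own assay. SW480 is an established cell line from a human colorectal cancer; it was the parental line and carried passage 0 in its labels. SW480R was the regorafenib-resistant line derived from it by rising doses of regorafenib, an oral multikinase inhibitor, over at least 12 months, and it was then kept in 0.02 μM regorafenib. The labels of SW480R gave passage 10, whereas the growth protocol stated more than 20 passages at the maintenance dose. The lines differed in the drug, in the time in culture and in the selection at once, and these cannot be told apart. RNA from 3 clones of each line was measured by RT-qPCR. The sources do not say whether the 3 SW480R clones came from separate selections. Each P-value thus sets the difference between the lines against a spread between clones, in limma mainly one shared across assays. It does not speak for other selections. The array held lncRNA, reference and control assays, without protein-coding markers of colon cells, so the labelled tissue could not be checked.

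Long non-coding RNAs are transcripts that are longer than the small RNAs and are not translated into protein. Some act in the nucleus on chromatin or on the transcription of nearby genes, and others bind proteins or microRNAs in the cytoplasm. A LINC symbol is a systematic name for such a gene when it lies between protein-coding genes, and it says nothing of function. All 5 symbols were found in the RefSeq gene table of GRCh38.p14, each with the class lncRNA, and 0 of the 5 genes overlapped a protein-coding gene there. The table was used for names and neighbours only, since the array's annotation gives no genome build.

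LINC00504 lies on chromosome 4, where its nearest protein-coding genes are BOD1L1 and CPEB2, the latter an RNA-binding regulator of translation. LINC00616 lies on the same chromosome between PCDH18, a protocadherin, and SLC7A11, the cystine/glutamate antiporter, and it overlaps the antisense lncRNA SLC7A11-AS1. LINC00640 lies on chromosome 14 between TMX1, a thioredoxin-related membrane protein, and FRMD6, a FERM domain protein of the Hippo pathway. LINC00958, also called BLACAT2 from its description in bladder cancer, lies on chromosome 11 between TEAD1, a transcription factor of the Hippo pathway, and RASSF10. LINC01128 lies on chromosome 1 between OR4F16, an olfactory receptor gene, and SAMD11, and its RefSeq entry lists 6 transcripts. Of the 5 genes, 4 overlapped another lncRNA gene, the exception being LINC00958, and neither those lncRNAs nor the coding neighbours were listed on the array under these names. The array listed an Ensembl transcript for LINC00504 (ENST00000505089), LINC00616 (ENST00000513895), LINC00958 (ENST00000504230) and LINC01128 (ENST00000441765). For LINC00640 it listed the assembled transcript TCONS_00022500 on chromosome 14 from 51349706 to 51352049, a span of 2344 bases on a build that it does not name. Whether a primer pair also amplified an overlapping transcript was not tested.

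No difference between SW480 and SW480R was detected for any of the 5 LINC assays. The mean level of LINC00640 was 1.21-fold that of SW480 in SW480R, and that of LINC00958 was 1.17-fold, while LINC01128, LINC00616 and LINC00504 were at 1.03-fold, 0.979-fold and 0.920-fold. In each of the 5 the clones of both lines overlapped. With limma and Benjamini-Hochberg adjustment over the 84 lncRNA assays, 0 of the 5 passed an adjusted P of 0.05, against 16 of 84 (19.0%) over the array, and 0 of the 5 passed at an unadjusted P of 0.05, against 18 of 84 (21.4%). The clones of the lines did not overlap in 0 of the 5 LINC assays, against 23 of 84 (27.4%). With only 5 assays, these shares are given as a description and no difference from the rest of the array was tested. Fewer cells that express a transcript and less of it per cell cannot be told apart in RNA from whole cultures.

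The measurement behind each value was a threshold cycle (Ct), the PCR cycle at which the fluorescence of a well crosses a set level, so more template gives an earlier crossing. The 30 Ct values of the LINC wells lay between 21.02 and 22.89. The genomic DNA control of the array came up at 35.05 at the earliest, 12.16 cycles after the latest LINC value, so that all 5 transcripts were read far from the late cycles. The deposited ΔCt is the Ct minus a reference Ct. In all 5 LINC wells the value subtracted was 18.51 or 18.52 cycles in every clone, which equals the references averaged across wells and clones, to the precision of the Ct. The ΔCt of the LINC assays therefore carry the raw Ct differences between clones, with no correction for the input of each clone. This held for 63 of the 84 lncRNA wells, while in the other 21 each clone's own reference mean had been subtracted, so the shared spread, the ranks and the counts over the array set the LINC wells beside wells of both kinds. Ct were not compared between different LINC transcripts as levels, because the efficiencies of the primer pairs are not given.

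LINC00640 had the largest difference of the 5. Its ΔCt was 3.19, 3.09 and 3.35 cycles in SW480 clones 1, 2 and 3, and 2.51, 3.08 and 3.22 cycles in SW480R clones 1, 2 and 3. SW480R clone 1 stood apart with the highest level, and the other SW480R clones lay among or next to the SW480 clones. SW480 averaged 3.21 ± 0.13 cycles (SD, n = 3) and SW480R 2.94 ± 0.38 cycles (SD, n = 3). limma gave a log2 fold change of 0.27 ± 0.25 (SE, adjusted P = 0.57), which was 0.056 without SW480R clone 1.

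LINC00958, known from bladder cancer, came next. Its ΔCt was 2.65, 3.10 and 3.47 cycles in the SW480 clones, and 3.03, 3.02 and 2.51 cycles in the SW480R clones. SW480R clone 3 was above every SW480 clone in level, and the other SW480R clones lay within the range of SW480. The means were 3.07 ± 0.41 cycles (SD, n = 3) and 2.85 ± 0.30 cycles (SD, n = 3), and the log2 fold change in limma was 0.22 ± 0.25 (SE, adjusted P = 0.65). Without SW480 clone 3 it was 0.025, and without SW480 clone 1 it was 0.43. For LINC00640 and LINC00958 the mean was higher in SW480R with the deposited ΔCt, but lower when GAPDH alone was the reference.

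LINC01128 was at 2.58, 3.07 and 3.34 cycles of ΔCt in the SW480 clones and at 3.43, 2.66 and 2.78 cycles in the SW480R clones. The ranges of the lines nearly coincided. The means were 3.00 ± 0.38 cycles (SD, n = 3) and 2.96 ± 0.42 cycles (SD, n = 3), which left a log2 fold change in limma of 0.044 ± 0.25 (SE, adjusted P = 0.94). Of the 84 lncRNA assays, 6 had a larger pooled SD between clones than LINC01128 (0.40 cycles), the widest of the 5.

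LINC00616, the neighbour of the cystine/glutamate antiporter gene, had ΔCt of 3.50, 4.37 and 4.00 cycles in the SW480 clones and of 3.89, 3.88 and 4.18 cycles in the SW480R clones. All 3 SW480R clones lay within the range of the SW480 clones. The means were 3.96 ± 0.44 cycles (SD, n = 3) and 3.99 ± 0.17 cycles (SD, n = 3), and limma's log2 fold change was -0.031 ± 0.25 (SE, adjusted P = 0.94).

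LINC00504 was at 4.11, 4.20 and 3.54 cycles of ΔCt in the SW480 clones and at 4.20, 4.00 and 4.00 cycles in the SW480R clones. SW480 clone 3 had the highest level, and the other 5 clones lay close together. The means were 3.95 ± 0.36 cycles (SD, n = 3) and 4.07 ± 0.11 cycles (SD, n = 3), for a log2 fold change in limma of -0.12 ± 0.25 (SE, adjusted P = 0.86). Without SW480 clone 3 the log2 fold change turned to 0.084. The signs of LINC01128 and LINC00616 also turned with other references and with single clones left out. The two-sided exact permutation test of 3 clones against 3 gave P = 0.4 for LINC00640 and LINC00958, 0.8 for LINC00504 and 1 for LINC01128 and LINC00616, where the smallest possible P is 0.1.

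**Figure D1:**
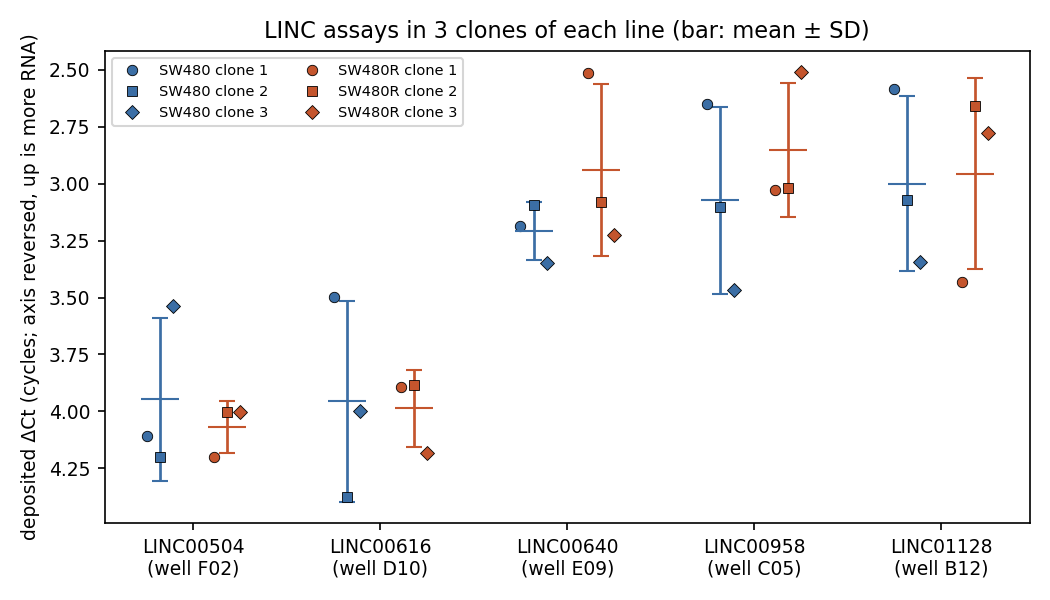
Deposited ΔCt in cycles (vertical axis, reversed so that more RNA is higher) of the 5 LINC assays in 3 SW480 clones (blue) and 3 SW480R clones (orange); horizontal bars are means and error bars SD. The lines overlap in every assay, and SW480R clone 1 of LINC00640 (2.51 cycles) and SW480 clone 3 of LINC00504 (3.54 cycles) stand above the rest of their assay.

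How large a change the clones leave possible was read from the 95% confidence interval of each log2 fold change. With the estimate of the spread that limma shares across assays, the interval ran from -0.22 to 0.76 for LINC00640, a range from 0.857-fold to 1.69-fold of the SW480 level. It ran from -0.28 to 0.72 for LINC00958, or from 0.825-fold to 1.65-fold. It ran from -0.46 to 0.55 for LINC01128, or from 0.727-fold to 1.46-fold. It ran from -0.53 to 0.47 for LINC00616, or from 0.694-fold to 1.38-fold, and from -0.61 to 0.37 for LINC00504, or from 0.655-fold to 1.29-fold. All 5 intervals held 0, and all 5 lay within a 2-fold change in either direction. The form of the raw Ct, described below, itself limited how large these differences could be.

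limma weighted the shared estimate with 58.7 prior degrees of freedom and the clones of an assay with 4, so these widths rest mainly on the other assays. With the spread of each assay alone, the intervals were wider. They ran from -0.37 to 0.91 for LINC00640, from -0.59 to 1.03 for LINC00958 and from -0.87 to 0.96 for LINC01128. They ran from -0.79 to 0.73 for LINC00616 and from -0.72 to 0.48 for LINC00504. In this fit 4 of the 5 lay within a 2-fold change, and that of LINC00958 passed it with an upper bound of 2.04-fold. To reach an unadjusted P of 0.05, a log2 fold change would have had to pass 0.49 to 0.51 with the shared spread, depending on the assay, and 0.60 to 0.91 with the spread of each assay alone. These are sizes of an observed difference, given the spread of each LINC assay.

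**Figure D2:**
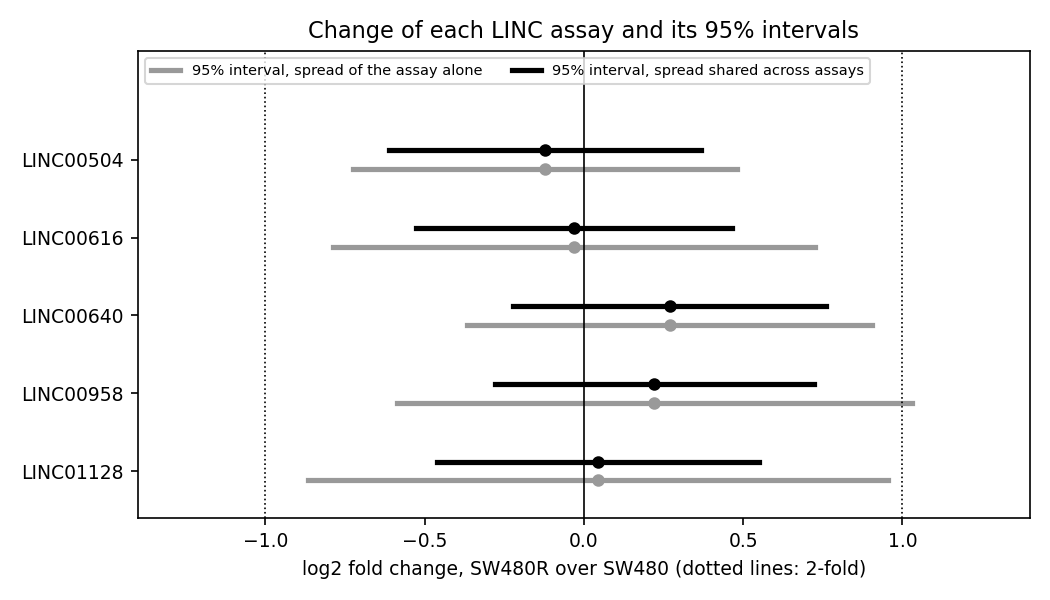
Log2 fold change of SW480R over SW480 (horizontal axis) of the 5 LINC assays with 95% confidence intervals, from the spread shared across assays (black) and from the spread of each assay alone (grey); dotted lines mark a 2-fold change. All intervals cross 0, and of the 10 shown, the grey one of LINC00958 passes a dotted line (upper bound 1.03).

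Set among the array, the 5 log2 fold changes took ranks 41, 49, 61, 76 and 80 of 84 by size, for LINC00640, LINC00958, LINC00504, LINC01128 and LINC00616. Their median size was 0.12, against 0.24 over all 84 assays. With the shared spread, the smallest difference that passed the adjusted threshold on the array was 0.67 and the largest that did not was 0.51, both on the log2 scale and without regard to sign. Of the 16 assays that passed in this fit, 14 had differences larger than any bound of its 5 LINC intervals (0.76). These 14 were also the only lncRNA assays whose 6 raw Ct did not lie within the same whole cycle. Their distance from the LINC assays thus cannot be told apart from that form of the Ct, described below. With the spread of each assay alone no such gap was seen, since AC114776.3 passed at 0.30 (adjusted P = 0.027 from that fit across all 84 assays in limma) and lnc-ZXDB-1 in well B04 did not pass at 1.32 (adjusted P = 0.063), a pair of assays chosen after their values were seen. Of the 15 assays that passed in that fit, 12 had differences larger than any bound of its LINC intervals (1.03), and all 12 were among the 14. By name, the clones of the lines did not overlap in 3 of 6 assays with an antisense (-AS) symbol, in 4 of 19 with an lnc- symbol and in 16 of the 54 others. These are counts of wells, against 23 of 84 (27.4%) over the array. SVIL-AS1 alone filled the antisense wells E08, F10 and G09, with log2 fold changes of 1.27, 0.068 and -1.97.

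**Figure D3:**
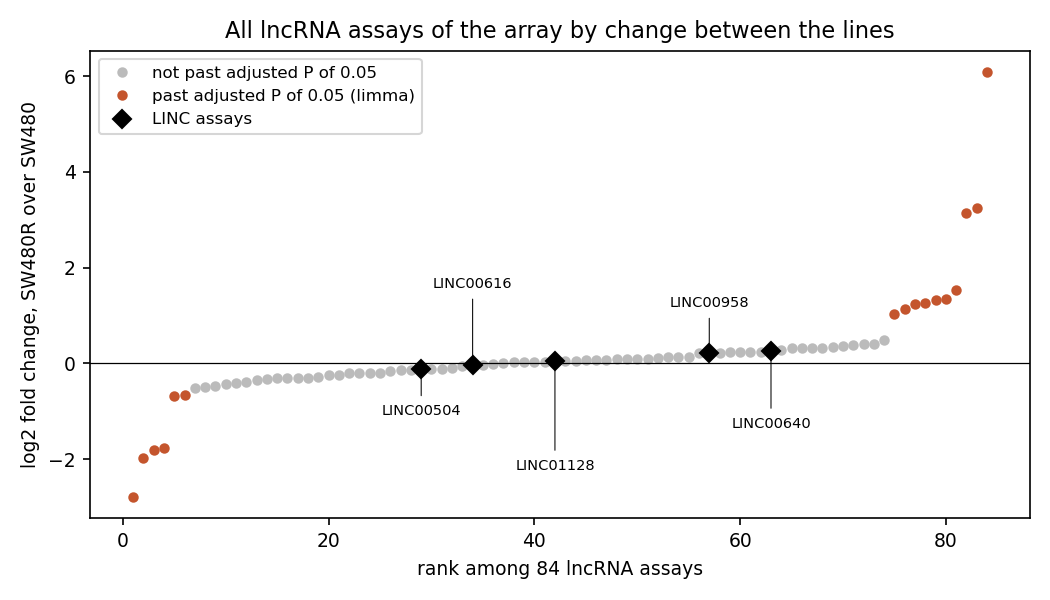
Log2 fold change of SW480R over SW480 (vertical axis) of the 84 lncRNA assays, ordered from lowest to highest (horizontal axis); orange points passed an adjusted P of 0.05 in limma, and black diamonds are the 5 LINC assays. The LINC assays lie between -0.12 and 0.27, in the flat middle of the order.

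The 3 assays with the 6 deposited ΔCt most like those of LINC00640, the member with the largest difference, were lnc-CYP3A43-1, AC091177.1 and SVIL-AS1 in well F10. After each assay was centred on its mean over the 6 clones, the root mean square differences from LINC00640 were 0.143, 0.208 and 0.225 cycles, against a median of 0.409 cycles over the 83 other assays. From the raw Ct the values were 0.142, 0.208 and 0.276 cycles, against 0.265 cycles of LINC00640 about its own mean. SVIL-AS1 in well F10, where each clone's own reference mean had been subtracted, was thus no nearer to LINC00640 in raw Ct than an assay without any variation would be. The log2 fold changes of the 3 assays were 0.13, 0.0024 and 0.068.

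The difference between a pair of LINC assays in the same clone needs no reference, because any amount subtracted from both drops out. Of the 10 pairs, 0 had lines that did not overlap, and the two-sided exact permutation P ranged from 0.4 to 1 (adjusted P = 1 for all 10 pairs). No such count was made over pairs of the other lncRNA assays, so it is given as a description. Both Ct of each pair also had the whole-cycle form described below, which limited how large a shift could be. The largest shift was that of LINC00504 relative to LINC00640. The Ct of LINC00640 minus that of LINC00504 was -0.92, -1.10 and -0.19 in the SW480 clones and -1.68, -0.93 and -0.77 in the SW480R clones. The mean shift between the lines was -0.39 (exact permutation P = 0.5). Such a difference in a clone is not read as a ratio of levels. LINC00958 and LINC01128, chosen here after their values were seen, kept nearly the same distance in the SW480 clones. The Ct of LINC01128 minus that of LINC00958 was -0.06, -0.03 and -0.12 in SW480, and 0.41, -0.36 and 0.27 in SW480R. The mean difference was -0.070 ± 0.046 (SD, n = 3) and 0.11 ± 0.41 (SD, n = 3), and the spread of this difference was not compared by a test.

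The clones were also set beside the references (GAPDH, ACTB, B2M, RPLP0 and HPRT1). The mean Ct of the 5 LINC assays was 21.72, 22.08 and 22.05 in SW480 clones 1, 2 and 3, and 21.93, 21.84 and 21.85 in the SW480R clones. The mean Ct of the references was 18.79, 18.22 and 18.63 in the SW480 clones, and 18.46, 18.51 and 18.47 in the SW480R clones. SW480 clone 1 thus had the earliest LINC mean and the latest reference mean, and SW480 clone 2 the reverse. When each clone's own reference mean was subtracted, the log2 fold changes were 0.20 for LINC00640, 0.15 for LINC00958, -0.025 for LINC01128, -0.095 for LINC00616 and -0.19 for LINC00504, and 0 of the 5 passed. With the spread of each assay alone added to this reference, an alternative chosen after seeing the data, the 5 intervals spanned -1.29 to 1.19 and 1 of the 5 lay within a 2-fold change. With ACTB, B2M, GAPDH or HPRT1 alone as the reference and the shared spread, 3 of the 5 intervals lay within a 2-fold change. The limit of 2-fold thus depended on the reference and on the estimate of the spread.

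**Figure D4:**
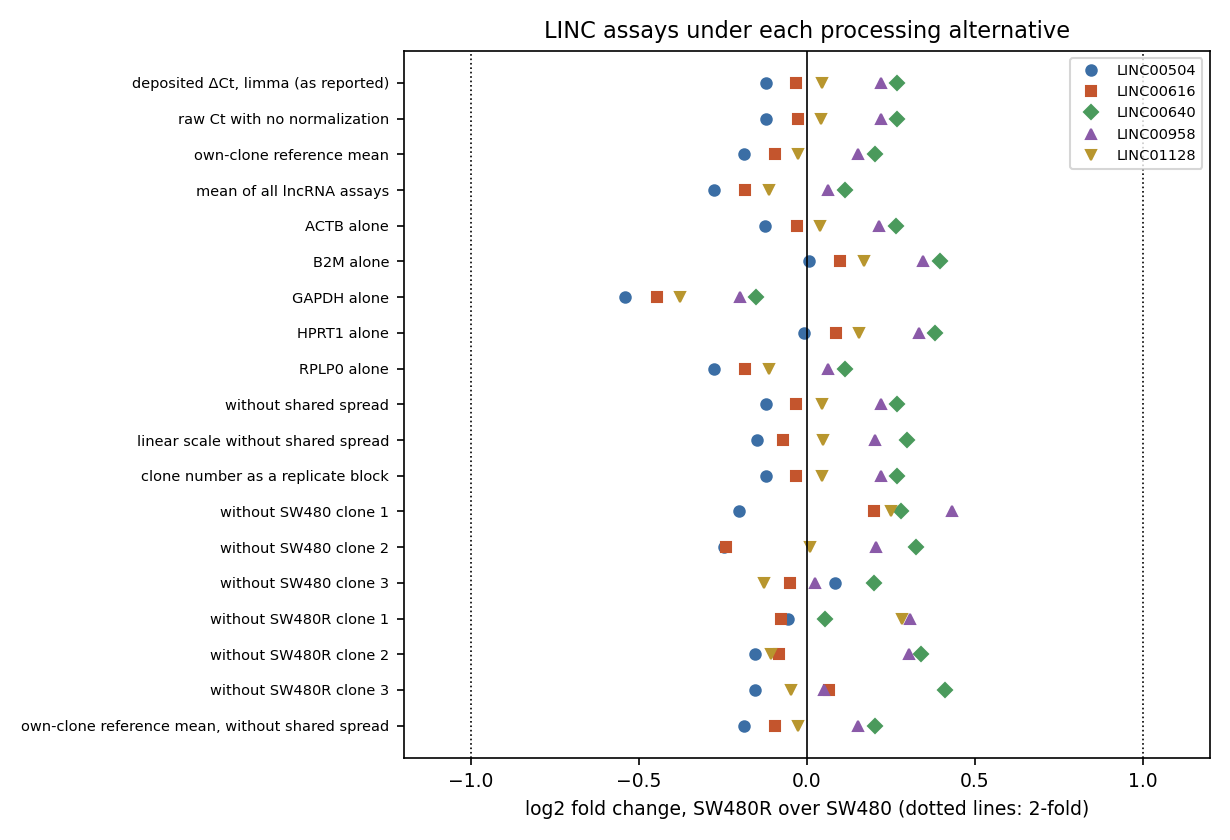
Log2 fold change of SW480R over SW480 (horizontal axis, dotted lines at 2-fold) of the 5 LINC assays under the deposited ΔCt (top) and under each of 18 alternatives (vertical axis). All points lie between -0.54 and 0.43, with the lowest 3 values under GAPDH alone.

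The raw Ct had a form that bears on the spread of the LINC assays and on the size of their changes. In each of the 5 wells the Ct of all 6 clones lay within the same whole cycle, 21 for LINC00640, LINC00958 and LINC01128 and 22 for LINC00616 and LINC00504, with ranges of 0.66 to 0.96 cycles. The same held for 70 of the 84 lncRNA assays. It did not hold for the 14 assays that passed the adjusted threshold with differences above every LINC bound. The Ct of ACTB, B2M, GAPDH, RPLP0 and each control well likewise lay within a whole cycle, and those of HPRT1 ran from 18.03 to 19.00. With all clones inside a whole cycle, the mean raw Ct of the lines could not differ by a full 2-fold change. The LINC intervals therefore cannot show by themselves that larger changes were absent from the cells. The origin of this form was not tested. The differences, the overlap of the lines, the standard errors, the intervals and the alternatives with other references are in doubt to the same degree.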

How the data were processed

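RNA of 3 SW480 and 3 SW480R clones was measured on a custom RT-qPCR array of 96 wells (84 lncRNA, 5 reference and 7 control wells) over 40 cycles with SYBR Green. The authors deposited the Ct of each well, treated here as a score on a reversed log2 scale, and the ΔCt, a score from which the authors had subtracted a reference Ct. A table of the authors' own fold changes between the lines was not used. Clones were assigned from the sample labels. The sign of the ΔCt was reversed. A linear model with the line as its only term was fitted to the 84 lncRNA assays (lmFit and eBayes of limma 3.58.1, R 4.3.3), with two-sided P-values and Benjamini-Hochberg adjustment across these assays. The fit was run on simulated normal values with the same spread in every assay. The array differed from this in its spreads and in the whole-cycle form of its Ct, so the run does not bear on the intervals above. Intervals of 95% used the moderated standard error, or that of each assay alone with 4 degrees of freedom. Single values were compared by exact permutation over the clones. The 17 alternatives covered the reference, the spread, the scale, a block and each clone left out, and 1 more was chosen after seeing the data. Each LINC assay was named by rule, together with the 3 assays closest to the member that differed most. The members and tests were chosen with earlier results of these data known. Technical repeats of a well and primer sequences were not used here, and precision is limited by the number of clones.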

Additional observations from a re-analysis of the deposited data

How the results depend on the processing

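Over 5 LINC assays and 18 alternatives, 0 of 90 values passed the adjusted threshold (lowest adjusted P = 0.18 from limma, LINC00504 with GAPDH alone), 74 kept their direction and 16 reversed, and the cause was not tested. LINC01128 was at -0.025 with each clone's own reference mean (also with the spread of each assay alone), -0.11 with RPLP0 or the mean lncRNA Ct and -0.38 with GAPDH. LINC00958 and LINC00640 were at -0.20 and -0.15 with GAPDH. LINC00616 was at 0.10 with B2M and 0.087 with HPRT1, and LINC00504 at 0.0067 with B2M. These references shift the median of all 84 assays, by -0.41 for GAPDH, -0.15 for RPLP0 or all lncRNA assays, 0.14 for B2M and 0.12 for HPRT1. With each clone left out in turn, LINC01128 ranged from -0.13 to 0.28, LINC00616 from -0.24 to 0.20 and LINC00504 from -0.25 to 0.084. The 16 assays past the threshold on the whole array became 10 with each clone's own reference mean and the spread of each assay alone. With GAPDH alone 42.1% of the calls were higher, against 62.5%, and with each clone's own reference mean 71.4%. A replicate block by clone number left 15 assays and 0 LINC assays past the threshold. Deviations of clones with the same number correlated at 0.0016, -0.22 and 0.14 over 84 assays. Whether clones with the same number shared a run or an origin was not tested.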
